A study of Mus musculus with 2 samples.

Results

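The genes described here are p53 with its described targets, the Bcl2 family, and the caspases with their adaptors and inhibitors, 51 mouse genes in all. They were chosen by name. Every probe in both scanner files whose RefSeq accession belongs to one of them was taken, which gave 87 probes, among 34560 probes for 23784 named genes. By group, there were 22 genes (38 probes) of p53 and its targets, 15 genes (26 probes) of the Bcl2 family and 14 genes (23 probes) of caspases, adaptors and inhibitors.

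The RNA came from a mouse glioblastoma stem cell line, kept as floating neurospheres in neural stem cell medium without serum (EGF and bFGF added) and set up from brain tumours that a Sleeping Beauty transposon had induced. The line was transduced with a lentivirus for a non-target control shRNA or for an shRNA against Gli2, a transcription factor through which Hedgehog signals reach target genes, and stably transduced cells were used. Each group had 1 array, hybridised with Cy3-labelled RNA, so none of the values could be checked against a replicate. The time after transduction and the number of clones are not given in the sources used here, and all results come from 1 line.

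p53, encoded by Trp53, is a transcription factor that is held down by Mdm2 and Mdm4 and that switches on genes of cell cycle arrest, DNA repair, metabolism and cell death when DNA is damaged or cells are stressed. In the mitochondrial death pathway, BH3-only proteins block the antiapoptotic Bcl2 proteins and free the pore-forming proteins Bax and Bak1, which release cytochrome c. Cytochrome c then joins Apaf1 and caspase-9, and effector caspases cut up the cell. Death receptors at the cell surface reach the same caspases through Fadd and caspase-8.

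The p53 half-site was looked for in the promoters, since the first group is defined by p53. The search ran over the 250 bases before each RefSeq start site (GRCm38.p6), in which 43 of the 51 genes had an entry. A full p53 element is made of 2 half-sites, and the consensus of a half-site is a palindrome of 10 bases, so a search of one strand covers both. A half-site was found for 9 of the 17 p53 group genes with an entry (52.9%), 2 of 13 Bcl2 family genes (15.4%) and 0 of 13 genes of the caspase group, against 8.2% of the 27025 genes in the promoter table. Every letter of the consensus had to match, so half-sites and elements with a mismatched letter were not counted. Under that rule no member with an entry had a full element, with a spacer of up to 13 bases (0.0666% of all genes had one). This does not show that these promoters lack a p53 element. None had the Gli consensus GACCACCCA on either strand (0.255% of all genes). The stretches of 8 members are printed to show the letters behind these counts, 5′ to 3′ on the strand of the gene, with the half-site in capitals.

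Trp53 (chr11:69580274-69580303, plus strand): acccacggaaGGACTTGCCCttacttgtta
Mdm2 (chr10:117710925-117710954, minus strand): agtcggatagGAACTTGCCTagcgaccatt
Ccng1 (chr11:40755452-40755481, minus strand): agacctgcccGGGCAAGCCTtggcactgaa
Gadd45a (chr6:67037428-67037457, minus strand): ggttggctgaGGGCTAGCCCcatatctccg
Sesn1 (chr10:41887256-41887285, plus strand): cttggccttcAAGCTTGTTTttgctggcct
Aen (chr7:78895927-78895956, plus strand): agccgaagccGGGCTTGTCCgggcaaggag
Bax (chr7:45467080-45467109, minus strand): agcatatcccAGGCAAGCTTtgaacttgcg
Bmf (chr2:118544781-118544810, minus strand): cccaagtgaaGGGCTTGCCTcttgccgaat

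A match is a description of letters and not a site bound in these cells. Ddit4l, Ei24 and Polk were the other members with a match. Btg2 and Bbc3, the members that were 2-fold higher in the Gli2 shRNA array, had no match in this window, which says nothing of sites elsewhere.

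Values are processed signals of the scanner software, and differences are on the log2 scale, with the control subtracted from the Gli2 shRNA value, after each array was divided by its 75th percentile, which was 329.2 for the control and 399 for the Gli2 shRNA array. A spot equally bright on both arrays therefore has a difference below 0. The error after ± joins the errors that the software gives for the 2 spots. It does not cover the spread between cultures. A probe counts as measured where the software called its spot well above background. Such signals began at a signal of 12.8 (control) or 15.2 (Gli2 shRNA). Where a gene had several probes, the brightest stood for it and the others are given beside it.

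The targeted gene, Gli2, had signals of 98.1 in the control and 57.9 with the Gli2 shRNA, a difference of -1.04 ± 0.22, or 48.7% of the control level. The gene has 1 probe, and with normexp background correction its difference was -0.64. Of the neural stem cell markers Sox2, Nes, Olig2, Msi1, Fabp7, Vim, Nr2e1, Prom1 and Cd44, 8 of 9 were measured on each array, with Prom1 and Nr2e1 near background. Among markers of other cells, 2 of 6 endothelial, 2 of 6 fibroblast and 4 of 6 myelin markers were measured on each array, with signals in the control of up to 72.5, 23.6 and 197. Of 7 microglial markers, 5 were measured in the control and 4 with Gli2 shRNA, with summed scaled levels of 16.75 and 15.83. Ptprc and Cx3cr1 were not well above background on either array, and Aif1 was measured in the control only. Itgam had signals of 4694 and 5413, Csf1r of 390 and 432, Cd68 of 344 and 398, and Tyrobp of 63.5 and 54.3. The part of these markers in the values below was not tested. In RNA of a whole culture, fewer cells that express a gene and less RNA per cell cannot be told apart.

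46 of the 51 genes were measured on both arrays, 1 (Bik) on the Gli2 shRNA array only and 4 (Fas, Perp, Casp8 and Birc3) on neither. Of the 46, 3 differed by 2-fold or more: Btg2 and Bbc3 were higher and Eda2r was lower. Among all 14563 genes measured on both arrays 3.63% did so (1.84% higher and 1.79% lower), and 3 of 46 is too few to set apart from that share. 7 members passed 1.5-fold, with Rrm2b, Bok, Hrk and Tradd added on the higher side, against 12.5% of all genes in either direction and 5.99% on the higher side. 27 members lay above 0 and 19 below, and 50.3% of all genes lay above 0. The median over the members was 0.10, against 0.003 over all genes.

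**Figure D1:**
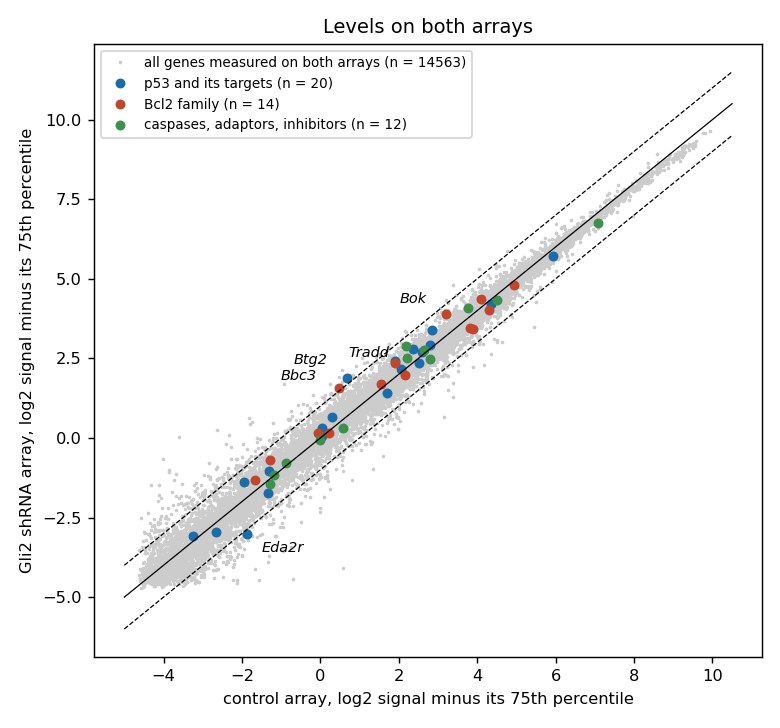
Scaled log2 signal of each gene on the control array (x axis) and on the Gli2 shRNA array (y axis). Grey points are all 14563 genes measured on both arrays, coloured points are the members by group, the solid line marks equal levels and the dashed lines a 2-fold difference. Btg2 and Bbc3 lie above the upper dashed line and Eda2r below the lower one, and the remaining members lie between the lines.

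In the first group, Trp53 itself was somewhat lower on its 1 probe, and its regulators Mdm2 and Mdm4 had no settled direction. Trp53 had signals of 130 in the control and 119 with Gli2 shRNA, a difference of -0.41 ± 0.21. Mdm2, the ubiquitin ligase that marks p53 for breakdown and is itself induced by p53, was bright, at 6711 and 7401, a difference of -0.14 ± 0.20, and its dim second probe gave 0.17. Mdm4, a relative of Mdm2 that masks the activating domain of p53, had signals of 133 and 195 on its brightest probe (0.27 ± 0.21), and its 4 probes ran from -0.05 to 0.53. Neither Mdm2 nor Mdm4 thus had one direction over its probes, and all 3 genes were within 1.5-fold.

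Btg2, an antiproliferative gene induced by p53, was the member with the highest difference measured on both arrays. Its brighter probe had signals of 530 in the control and 1455 with Gli2 shRNA (1.18 ± 0.20, or 2.26-fold). Its second probe gave 350 and 1223 (1.53 ± 0.20, or 2.89-fold). Both probes were thus past 2-fold in the same direction, and with normexp the brighter probe still gave 1.05 and the other 1.42. By size of the higher differences Btg2 ranked 157 of 14563 genes.

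After Btg2 and Rrm2b, the highest measured differences of the group were at Plk2, Sesn2, Sesn1 and Trp53inp1, taken here by their values. Sesn1 and Sesn2, the sestrins that restrain mTORC1 and help against oxidants, had signals of 1695 and 2781 (0.44 ± 0.20) and of 1227 and 2149 (0.53 ± 0.20). Plk2, a polo-like kinase, was at 2379 in the control and 4193 with the Gli2 shRNA (0.54 ± 0.20). Trp53inp1, a stress protein that promotes p53 activity, was at 402 and 636 (0.38 ± 0.20), with 0.36 on its second probe. Each of these 4 genes was short of 1.5-fold. Each was also beyond its software error, which held for 46.2% of all genes measured on both arrays, at any size and in either direction. In the whole group 13 of 20 genes were beyond that error, 8 higher and 5 lower.

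Among genes of DNA repair and nucleotide supply, Rrm2b, the p53-induced subunit of ribonucleotide reductase, was at 84.9 and 155 (0.59 ± 0.21), with a difference of 0.34 under normexp. Gadd45a, a growth arrest and DNA damage protein, was at 339 and 497 (0.27 ± 0.20). Polk, a DNA polymerase that copies past lesions, was at 342 and 420 (0.02 ± 0.20). A second Polk probe gave 0.30 ± 0.28, and another, measured in the control only, was at least 2.12-fold lower. The brightest Polk probe and the dim ones therefore did not give one direction.

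A set of p53 targets was close to 0 or somewhat lower. Phlda3, which holds back Akt (0.10 ± 0.20), Ei24, a protein of the endoplasmic reticulum (0.10 ± 0.20, and 0.17 on the second probe), and Tigar, which lowers glycolytic flux (0.12 ± 0.20), were all within the software error of 0. So were Ddit4l, an inhibitor of mTOR signalling (34.6 and 46.9, or 0.16 ± 0.25, and -0.13 with normexp), and Ccng1, the cyclin G1 gene (1889 and 2018, or -0.18 ± 0.20). Zmat3, an RNA-binding protein, was at 1069 and 1060 (-0.29 ± 0.20). Aen, an apoptosis nuclease, was at 20240 and 20828 (-0.24 ± 0.20), and its 4 probes ran from -0.30 to -0.01, so that some would lie above 0 after a shift of all genes by 0.14 under median scaling.

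The p53 targets that encode death receptors or membrane proteins were dim. Eda2r, a receptor of the TNF receptor family, was at 90.3 in the control and 49.4 with Gli2 shRNA (-1.15 ± 0.23, or 2.21-fold lower), the lowest difference among the members measured on both arrays. It rests on 1 probe near the lower end of the signal range, since its other 2 probes were not well above background, and with normexp its difference was -0.61. Tnfrsf10b, the receptor of the ligand TRAIL, was at 52.2 and 51.7 (-0.29 ± 0.24). Fas, a receptor with a death domain, had signals of 8.11 and 5.21 on its brighter probe, and Perp, a membrane protein of cell junctions, 5.45 and 5.00. Neither gene was well above background on either array, and no fold is given for them.

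Over the 20 genes of the p53 group measured on both arrays, 13 lay above 0 and 7 below, with a median of 0.11. Over all genes 50.3% lay above 0, with a median of 0.003. In the group 1 gene was past 2-fold higher and 1 lower, against 1.84% and 1.79% of all genes. The 9 genes with a p53 half-site ran from -0.41 to 0.44 with a median of 0.02, and the 7 measured genes with a promoter entry and no half-site ran from -1.15 to 1.18 with a median of 0.27. Btg2 and Eda2r, with the highest and the lowest difference of the group, both had no match in this window. Trp53inp1, Zmat3, Tnfrsf10b and Rrm2b had no promoter entry and are in neither set. The search took only exact half-sites in a short window, so the split cannot tell genes that p53 regulates from others. Whether p53 lay behind any of these differences was not tested.

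**Figure D2:**
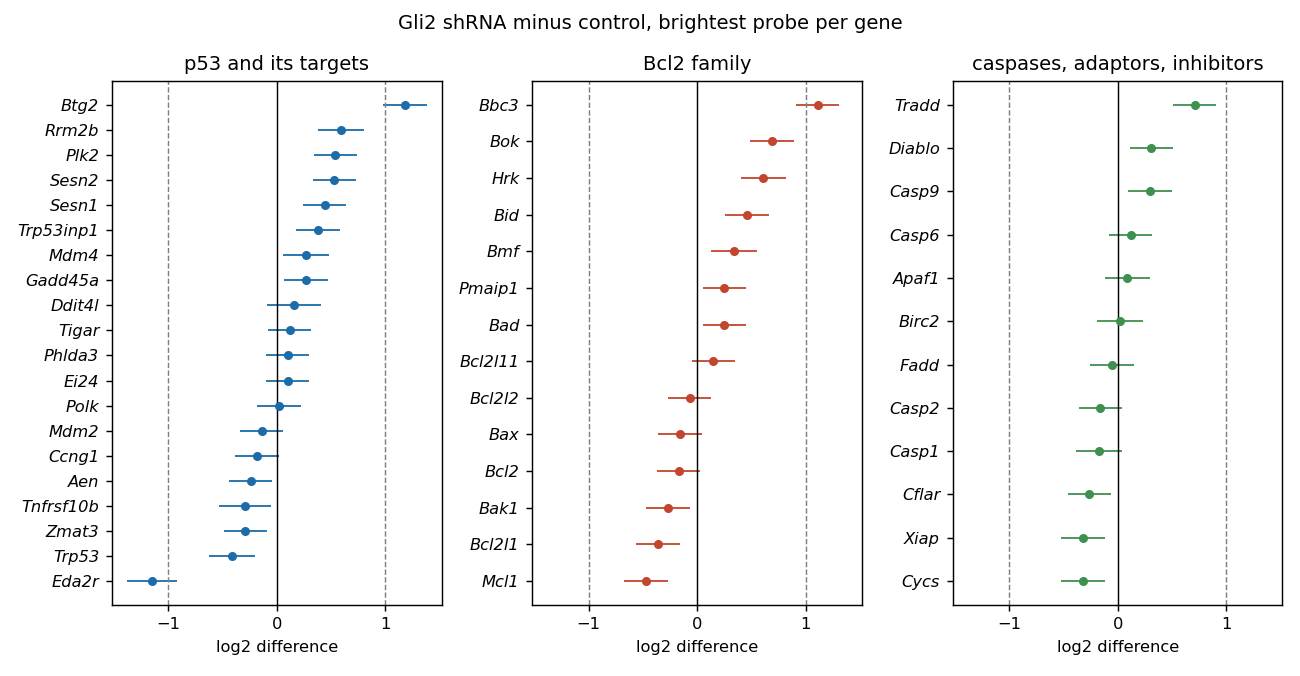
Log2 difference of the 46 members measured on both arrays (x axis), Gli2 shRNA minus control, on the brightest probe of each gene, in the 3 groups. Bars are the software's error of both spots, not a spread between cultures, and dashed lines mark 2-fold. Btg2 (1.18) and Bbc3 (1.11) lie past the upper line and Eda2r (-1.15) past the lower one.

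On the brightest probes, the Bcl2 family divided by role. The 4 antiapoptotic members lay below 0 (3 of 4 under median scaling, where Bcl2l2 was at 0.06). The 7 BH3-only members measured on both arrays lay above 0 (6 of 7 with the mean of measured probes, where Bcl2l11 was at -0.07). Over all genes 50.3% lay above 0, and 68.8% under median scaling. The differences of Bcl2, Bcl2l2 and Bcl2l11 were within their software error of 0. In the whole family 10 of 14 genes were beyond that error, 7 higher and 3 lower (71.4%, against 46.2% of all genes). The medians were -0.27 and 0.34, which differ by 0.61, a distance that no common shift of an array changes. The roles are the textbook ones and were assigned with the values known, so the split is a description of these 2 arrays.

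Among the antiapoptotic members, Bcl2, the founding gene of the family, was at 1477 in the control and 1586 with Gli2 shRNA (-0.17 ± 0.20), with -0.22 on its second probe. Bcl2l1, which encodes Bcl-xL, was at 4617 and 4348 (-0.36 ± 0.20). The 4 Bcl2l1 probes measured on both arrays ran from -0.51 to -0.23. Mcl1, a short-lived antiapoptotic protein, was at 4837 and 4234 (-0.47 ± 0.20). Bcl2l2, which encodes Bcl-w, was at 387 and 446 (-0.07 ± 0.20). Thus 8 of 8 measured probes of these genes lay below 0, and 7 of 8 under median scaling, which raises the differences of all genes by 0.14. None of the 4 genes was past 1.5-fold.

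The pore-forming members differed from each other. Bax was at 10192 and 11084 (-0.16 ± 0.20, and -0.10 on its second probe) and Bak1 at 6446 and 6494 (-0.27 ± 0.20). Bok, a relative of both that is not restrained by the antiapoptotic members in the same way, was at 3041 in the control and 5961 with the Gli2 shRNA (0.69 ± 0.20, or 1.62-fold). Bok, with 1 probe, thus lay on the other side of 0 from Bax and Bak1, and it was at 0.74 with normexp.

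Bbc3, the BH3-only gene also called Puma and a direct p53 target, had the highest difference of the family measured on both arrays. Its signals were 455 in the control and 1190 with Gli2 shRNA (1.11 ± 0.20, or 2.16-fold), and 1.02 with normexp, on 1 probe. It ranked 186 of 14563 genes on the higher side. Over all genes measured on both arrays 1.84% were 2-fold higher. Among the 11151 genes with a signal of at least 100 on both arrays, as Bbc3 and Btg2 had, 0.744% were. The share of members in that range was not worked out, so no excess of members can be read from this value.

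4 further BH3-only genes were higher by less on the probe that measured them. Hrk, which acts in neurons, was at 135 and 250 (0.61 ± 0.21, and 0.31 with normexp), and its second probe was not well above background. Bid, which caspase-8 cuts to link both death pathways, was at 1230 and 2052 (0.46 ± 0.20). Bad, which growth factor signals hold inactive, was at 5650 and 8122 (0.25 ± 0.20), and Pmaip1, the p53 target Noxa, at 313 and 450 (0.25 ± 0.20). Each of these 4 lay below 2-fold and beyond its software error, and since 46.2% of all genes did the latter, values such as those of Bad and Pmaip1 were ordinary on these arrays.

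For the remaining BH3-only genes the direction depended on the probe or on a faint signal. Bmf was at 104 and 160 on its brighter probe (0.34 ± 0.21) and at 45.0 and 45.2 on the other (-0.27 ± 0.24). Bcl2l11, which encodes Bim, was at 957 and 1290 on the brightest probe (0.15 ± 0.20), and its other 2 probes measured on both arrays gave -0.04 and -0.33. Bik had signals of 9.89 in the control, not well above background, and 35.8 in the Gli2 shRNA array, at least 2.31-fold higher, and 0.20 with normexp. Among the 476 genes that were, like Bik, measured with the Gli2 shRNA only, 31.1% had a bound of 2-fold or more. By probes, 7 of 10 measured BH3-only probes lay above 0 and 3 below, so the agreement was closer for the brightest probes than for all.

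**Figure D3:**
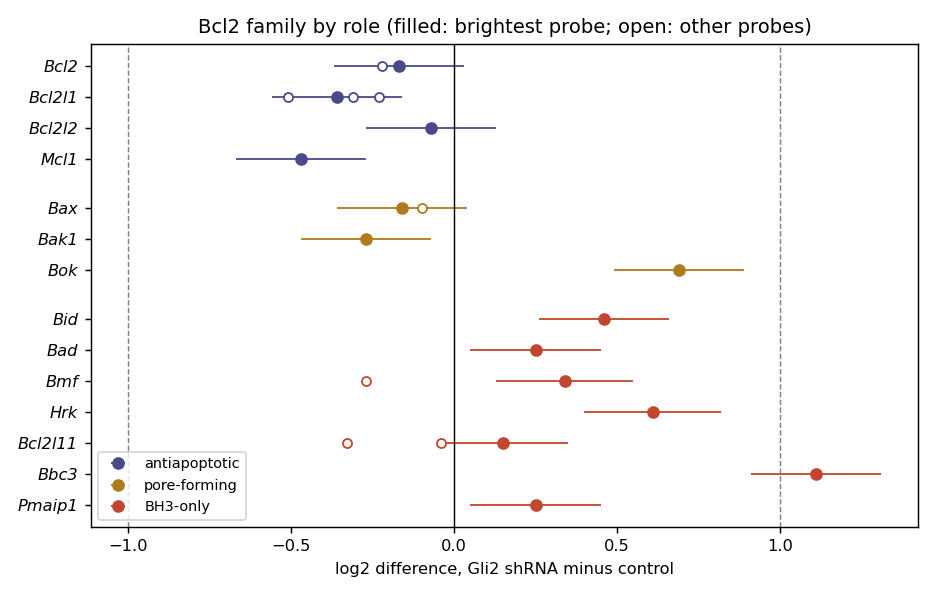
Log2 difference (x axis), Gli2 shRNA minus control, of each measured probe of the Bcl2 family, ordered by role. Filled points are the brightest probe with the software's error, open points are the other probes, and dashed lines mark 2-fold. All antiapoptotic probes lie below 0 (Bcl2l2 is at 0.06 under median scaling), the brightest BH3-only probes lie above 0, and open points of Bmf and Bcl2l11 lie below 0.

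Caspases, adaptors and inhibitors went both ways by small amounts. Of the 12 measured genes 6 lay above 0 and 6 below, with a median of -0.01. None was past 2-fold, against 3.63% of all genes. Beyond their software error were 6 of the 12, 3 on the higher side and 3 on the lower, or 50%, close to the 46.2% of all genes. Among the initiators, Casp9, which the apoptosome activates, was at 1531 and 2280 (0.30 ± 0.20, and 0.03 on its second probe), and Casp2, an initiator linked to DNA damage, was bright at 7453 and 8080 (-0.16 ± 0.20). Casp8, the initiator of death receptors, had signals of 4.35 and 3.13 and was not well above background on either array. Casp6, an effector caspase, was at 2051 and 2706 (0.12 ± 0.20), and Casp1, the caspase of inflammasomes, was dim at 135 and 145 (-0.17 ± 0.21). None of the members among the caspases that were measured on both arrays reached 1.5-fold.

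Cycs and Apaf1, which form the apoptosome with caspase-9, and Diablo, which leaves the mitochondrion with cytochrome c, had several probes each. Cycs, which encodes cytochrome c, was at 44173 in the control and 42891 with Gli2 shRNA (-0.32 ± 0.20, and -0.29 on its second probe). Apaf1, the scaffold, was at 179 and 231 (0.09 ± 0.21), with -0.34 ± 0.38 on a second probe near background. Diablo, a mitochondrial protein that blocks the inhibitors of caspases, was at 4476 and 6745 (0.31 ± 0.20), with 0.52 on its second probe. Both Cycs probes were thus on the lower side and both Diablo probes on the higher.

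Of the inhibitors of caspases, Xiap, which binds caspases directly, was at 2280 and 2213 (-0.32 ± 0.20, and -0.12 on its second probe), and Birc2 was at 145 and 179 (0.02 ± 0.21). Birc3, a relative of Birc2, had signals of 2.65 and 3.11 and was not well above background. Cflar, which blocks caspase-8 at death receptors, was at 489 and 496 on its brightest probe (-0.26 ± 0.20). The 4 Cflar probes measured on both arrays ran from -0.61 to -0.26. All 4 were thus on the lower side. Another Cflar probe, close to background and measured with the Gli2 shRNA only, was at 13.2 and 17. Its difference of 0.09 ± 0.47 (-0.10 with normexp) gave no direction.

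Of the adaptors, Tradd, which joins TNF receptors to their signalling complex, was at 1497 in the control and 2959 with Gli2 shRNA (0.71 ± 0.20, or 1.63-fold, on 1 probe), the highest difference of this group. Fadd, which joins death receptors to caspase-8, was at 326 and 382 (-0.05 ± 0.20). Tradd kept 0.70 with normexp, and Fadd changed sign with median scaling (0.09).

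Probes of the same gene give a further look at precision. 18 members had at least 2 probes measured on both arrays, and in 13 of them (72.2%) all probes lay on the same side of 0, against 69.5% of 5415 genes of the whole array. The range between a member's probes had a median of 0.28 (0.16 over all genes), which is larger than many of the differences above. Btg2 was the member whose probes were all past 2-fold.

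**Figure D4:**
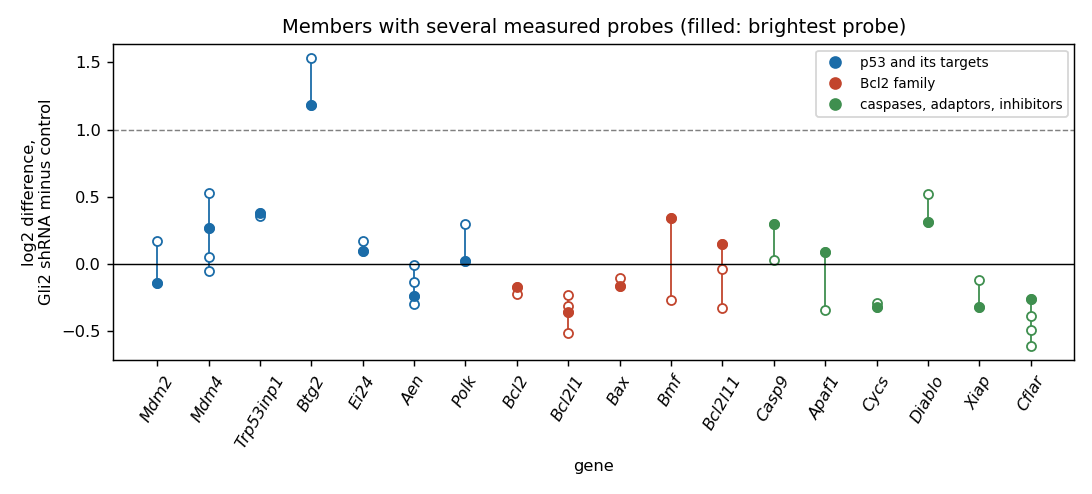
Log2 difference (y axis), Gli2 shRNA minus control, of every measured probe of the 18 members with several measured probes (x axis), coloured by group. Filled points are the brightest probe, open points the others, and the dashed line marks 2-fold. Both Btg2 probes lie above that line, and the probes of Mdm2, Mdm4, Bmf, Bcl2l11 and Apaf1 lie on both sides of 0.

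Further genes of the same pathways were listed by name beside the members. Of 27 other genes of the p53 pathway, all measured on both arrays, 16 lay above 0 and 11 below, with a median of 0.06. The list ran from -0.56, at the cell cycle inhibitor Rprm, to Pltp, which alone was past 2-fold. Trp63, a relative of Trp53, was at -0.48 ± 0.20, and Rprm and Trp63 are named here after their values were seen. Pltp, a phospholipid transfer protein, had signals of 34.9 and 88.3 (1.06 ± 0.24, and 0.36 with normexp). Cdkn1a, the cell cycle inhibitor p21 and a standard readout of p53, was at 930 and 1741 (0.63 ± 0.20, or 1.54-fold). Cdkn1a thus lay on the same side of 0 as 13 of the 20 measured genes of the p53 group. The other 7 (Trp53, Mdm2, Ccng1, Zmat3, Eda2r, Aen and Tnfrsf10b) lay on the lower side.

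Of 15 measured relatives and partners of the Bcl2 family outside the members, none was past 2-fold, 5 lay above 0 and 10 below, with a median of -0.03. Of 20 further genes of death signalling measured on both arrays none was past 2-fold, 8 lay above 0 and 12 below, with a median of -0.05. Septin4, named after its values were seen, was measured with the Gli2 shRNA only (a signal of 32.3), at least 2.09-fold higher, and was at 0.31 with normexp.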

How the data were processed

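Total RNA of 2 cultures was measured on 1-colour Agilent arrays (Cy3). Per the file headers, the deposited scanner files were made with Agilent Feature Extraction 12.1.0.3 (protocol GE1_1200_Jun14, design 074809, grid build mm9) and hold, for each spot, a processed intensity (background already subtracted) and its error. The authors' deposited value table is on a log2 scale, and compared with the scanner files each column is the log2 processed intensity minus 1 constant (8.36 and 8.64), so its 75th percentile is 0, its column medians are -3.55 and -3.69, and its direction is that of the signal.

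From the scanner files, control spots and spots marked as outliers (126 and 120) were left out, no spot was saturated, spots of 1 probe were averaged on the log2 scale, and the 75th percentile of each array was subtracted. A probe counted as measured where over 50% of its spots were well above background (59.5% and 57.1% of probes). 34560 of 56595 probes were named through RefSeq accessions of GRCm38.p6. Sequences are from RefSeq, GRCm38.p6. No test can be run on 1 array against 1, and 2-fold is a size rule. For a gene measured on 1 array, the dim array was given the probe's own signal or, if higher, the lowest signal well above background. All members are named; of the further pathway genes, those past 2-fold on both arrays and Cdkn1a, and some items are not reported here. The members, lists and roles were chosen with earlier results of these data known. Alternatives were normexp (limma 3.58.1, R 4.3.3, offset 50, on median spot and background signals), median scaling, quantile normalization, cyclic loess, 2 other filters, the mean of probes, the authors' table and 1.5-fold. The steps were run on simulated data with planted differences well past the 2-fold rule. That run was no test of differences as small as most of those above. The number of arrays limits the precision.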

Additional observations from a re-analysis of the deposited data

How the results depend on the processing

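Btg2 and Bbc3 were past 2-fold, and no gene of the caspase group was, under every alternative run at 2-fold. The p53 group held 1 gene past 2-fold in place of 2 with normexp and with a signal of at least 50 on both arrays, since Eda2r left it. The Bcl2 family held 2 in place of 1 without the filter on dim probes, when Bik entered, and 3 with the 1.5-fold rule, which also gave 1 for the caspase group. Over all genes 528 were past 2-fold, against 167 with normexp, 2845 without the filter, 297 with a signal of at least 50 and 1826 at 1.5-fold. With median scaling 384 were higher and 177 lower, in place of 268 and 260. Gli2 was at -0.64 with normexp, and at -0.90 and -0.97 with median scaling and cyclic loess, short of 2-fold. The Bcl2 family median of 0.20 was -0.02 with the mean of measured probes. In that setting Bmf went from 0.34 to 0.04 and Bcl2l11 from 0.15 to -0.07, and no other gene of the family moved by more than its software error. The caspase group median ran from -0.09 to 0.12. The distance between the BH3-only and antiapoptotic medians, a measure added after seeing the data, ran from 0.52 to 0.67. Of 46 members, 4 moved by more than their software error with normexp (Eda2r, Rrm2b, Ddit4l and Hrk) and 3 with the mean of probes (Bmf, Bcl2l11 and Apaf1), where Mdm2 (0.02), Bcl2l11 (-0.07) and Apaf1 (-0.13) changed sign, and no member past 2-fold changed sign. No paired analysis was possible because each group has 1 array. Signals near background limit Bik, Fas, Perp, Casp8 and Birc3. Low signals, though well above background on both arrays, limit Eda2r and likewise Gli2.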
